A study of Homo sapiens with 21 samples.

Results

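A short hairpin RNA (shRNA) against ANXA4 was compared with a non-targeting (NT) shRNA in HEK 293FT cells, a fast-growing human embryonic kidney line that carries the SV40 large T antigen. The comparison rests on 6 of the 21 messenger RNA libraries of a series that set the RNA-targeting nuclease RfxCasR beside matched shRNAs. The 3 ANXA4 shRNA libraries and the 3 NT shRNA libraries were chosen by their column labels. Cells of every group received plasmid DNA with Lipofectamine 2000, were used at passages 8 to 12 in medium with 10% serum, and gave RNA at 48 h. The transfection and the presence of a hairpin are therefore shared with the NT shRNA controls, and the labels mention no selection or sorting of transfected cells. Labels name only 1 hairpin for ANXA4 and 1 for the control, and call the 3 replicates of each biological without saying how the cultures were kept apart. The other 5 groups (a B4GALNT1 shRNA, RfxCasR with a B4GALNT1 or an NT guide RNA, and RfxCasR with an array labelled ANXA4 or NT) are used only as background levels. The read total behind the FPKM values, inferred from FPKM and exon length, was 21.4 to 24.5 M per library for the 6. It was 21.4 to 39.5 M over all 21. Reads recovered in genes made up 84.8% to 85.9% of that total in the 6.

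An shRNA is transcribed from the plasmid, cut to a short duplex by DICER1 and loaded into an Argonaute protein, which it guides to transcripts with complementary sequence. A fully matched transcript can be cleaved, and transcripts that match only the seed of the small RNA can be lowered as in the action of a microRNA. Annexin A4, the ANXA4 product, binds acidic phospholipids when calcium rises, gathers at membranes and takes part in plasma membrane repair, secretion and ion channel regulation in epithelial cells. Levels are given as FPKM (fragments per kilobase of exon per M fragments), and differences as ANXA4 shRNA minus NT shRNA on the scale of log2(FPKM + 1), which understates the change of low genes. A gene was called when its Benjamini-Hochberg adjusted p from limma was under 0.05.

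ANXA4 (NM_001153, hg19 chromosome 2, 69969106 to 70053609, plus strand) had 2.15, 2.56 and 2.50 FPKM in the ANXA4 shRNA libraries, against 5.82, 6.31 and 5.57 FPKM in the NT shRNA libraries. No library of one group reached the level of any library of the other. The mean was 2.40 ± 0.220 FPKM with the ANXA4 shRNA and 5.90 ± 0.378 FPKM with the NT shRNA (SD, n = 3 each). On the log2 scale ANXA4 differed by -1.02 (SE 0.0765, Benjamini-Hochberg adjusted p = 1.72e-09 from limma). The exact two-sided permutation p over the 6 libraries was 0.1, the smallest that 3 against 3 can give. In reads recovered from the FPKM values, the transcript had 114, 118 and 122 reads with the ANXA4 shRNA against 305, 310 and 278 reads with the NT shRNA, so each level rests on a modest count. Over the other 5 groups the mean ranged from 3.03 FPKM in the libraries labelled NT array to 7.24 FPKM with the B4GALNT1 guide. The array libraries run against their labels for this gene, with 7.03 FPKM in those labelled ANXA4 array. The ANXA4 shRNA group had the lowest mean of all 7 groups, although 1 library labelled NT array (2.54 FPKM) lay just below the highest ANXA4 shRNA library (2.56 FPKM). By size on the log2 scale the fall of ANXA4 ranked 75 among all falls.

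**Figure D1:**
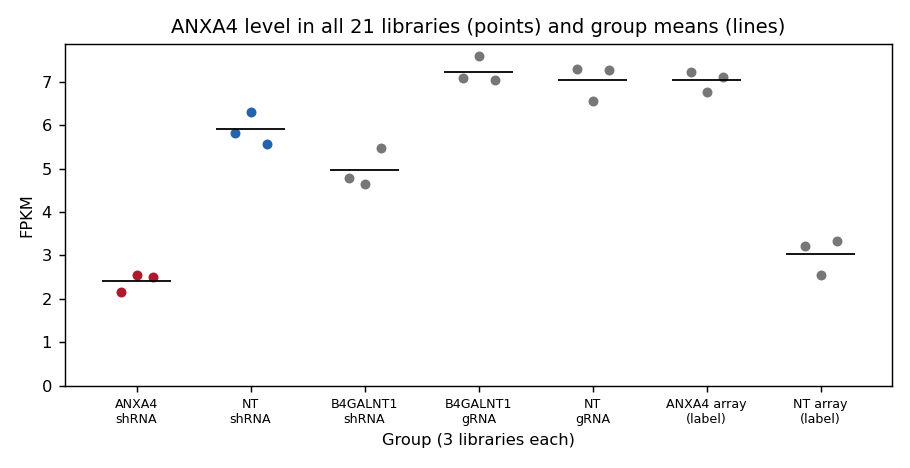
ANXA4 level in FPKM (vertical axis, from 0) in each of the 21 libraries (points) and as group means (lines), for 7 groups of 3. The ANXA4 shRNA libraries lie between 2.15 and 2.56 FPKM, below all NT shRNA libraries, which lie between 5.57 and 6.31 FPKM.

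The other annexins share the calcium-binding core but moved little. ANXA6, which has a doubled core and regulates cholesterol transport, fell (65.01 against 83.3 FPKM, -0.35 log2, limma adjusted p = 2.36e-07). ANXA5, the phosphatidylserine-binding annexin used as a reagent for dying cells, fell by less (132 against 158 FPKM, -0.26 log2, limma adjusted p = 1.11e-05). ANXA7 rose (40.3 against 36.7 FPKM, 0.13 log2, limma adjusted p = 0.0345), but the call was lost on leaving out any 1 library except ANXA4 shRNA replicate 2 (limma adjusted p up to 0.0924). ANXA1, ANXA2, ANXA3 and ANXA11 were not called, at -0.07, -0.01, 0.01 and -0.02 log2. S100 proteins bind annexins as dimers, and 2 of the 3 tested rose: S100A10, the partner of annexin A2, had 180.2 against 136 FPKM (0.40 log2) and S100A11 had 89.1 against 71.9 FPKM (0.31 log2). S100A4 was not called (0.14 log2). ANXA2P2, a processed copy of ANXA2 that can take reads of its parent, fell by 0.13 log2 (limma adjusted p = 0.0292), a call lost without NT shRNA replicate 2 or without ANXA4 shRNA replicate 1 or 2 (up to 0.185). In all, 3 of 11 tested annexin and S100 genes rose and 3 fell, where 25.6% and 26.3% of all genes tested were called in these directions, and ANXA4 was the only one past 2-fold.

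The difference between the groups was not confined to the target. Of 13679 genes tested, 7089 (51.8%) were called, 3497 higher (25.6%) and 3592 lower (26.3%) with the ANXA4 shRNA. The counts given below for gene lists stand beside these shares. The 3 libraries of one group did not overlap those of the other for 8334 genes (60.9%). Most called differences were small: 2206 were under 0.25 log2, 3331 between 0.25 and 0.5, 1405 between 0.5 and 1, and 147 (1.07% of genes tested) at 1 or more, which is 2-fold on this scale. Among those 147, 67 rose (0.49%) and 80 fell (0.585%). The authors' deposited table for the same comparison holds 7192 genes with an adjusted p under 0.05. Among 13379 tested genes with a row in the authors' deposited table, 6583 were called both here and there, 6580 of them with the same sign.

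**Figure D2:**
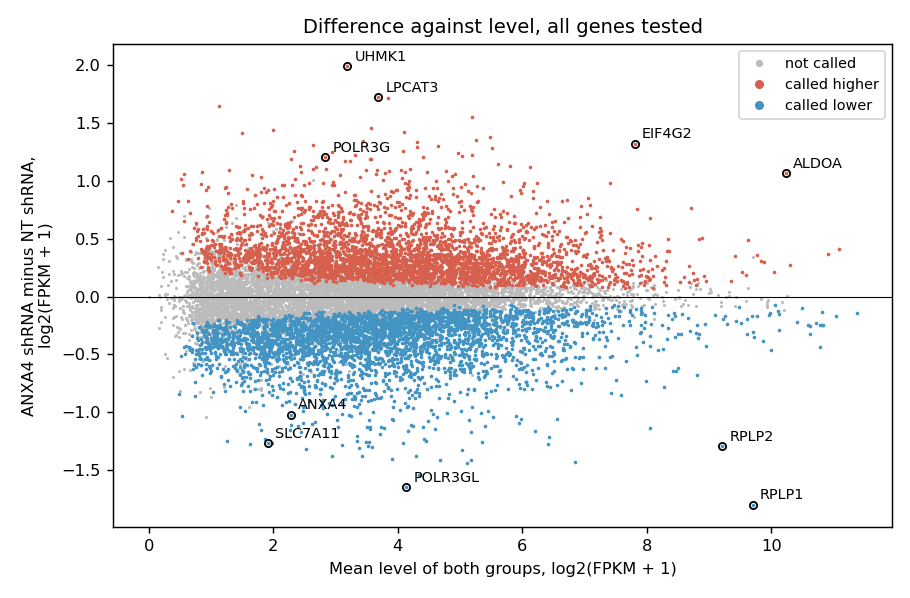
Difference between the ANXA4 shRNA and NT shRNA groups in log2(FPKM + 1) (vertical axis) against the mean level of both groups in log2(FPKM + 1) (horizontal axis), 1 point per gene tested. Red points were called higher (3497 genes), blue points lower (3592 genes) and grey points were not called, and the labelled genes are described in the text.

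The 5 background groups show which side of each comparison stood apart. For 29 of the 67 genes that rose 2-fold or more, the ANXA4 shRNA mean lay above and the NT shRNA mean below all 5 other group means. For 26 of the 67 the NT shRNA mean alone lay outside that range, and for 11 the ANXA4 shRNA mean alone. Among the 80 genes that fell 2-fold or more, both groups lay outside on opposite sides for 43, the ANXA4 shRNA group alone for 26 and the NT shRNA group alone for 7. Over all genes tested, both lay outside on opposite sides for 7.68%, ANXA4 shRNA alone for 20.9%, NT shRNA alone for 21.1% and neither for 27.9%. A large difference widens the gap between both means and so makes such positions likelier, and these positions carry no test. The hairpins, their off-target matches and the loss of ANXA4 differ between the same 2 groups of libraries and cannot be told apart here.

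The steepest rise was in UHMK1, a serine/threonine kinase that phosphorylates the splicing factor SF1. It had 18.6, 16.5 and 16.7 FPKM in the ANXA4 shRNA libraries, against 3.65, 3.50 and 3.56 FPKM in the NT shRNA libraries (1.99 log2, SE 0.0568, limma adjusted p = 2.63e-15). The other 5 groups ranged over 4.64 to 7.30 FPKM, so the ANXA4 shRNA libraries stood alone at the high end. LPCAT3, which inserts polyunsaturated acyl chains into lysophosphatidylcholine, had 22.5, 23.8 and 20.9 FPKM in the ANXA4 shRNA libraries, against 6.40, 5.69 and 6.12 FPKM in the NT shRNA libraries (1.73 log2, SE 0.0607, limma adjusted p = 5.85e-14). Here the other 5 groups lay at 15.4 to 17.3 FPKM, nearer to the ANXA4 shRNA libraries. MCU, which forms the channel of the mitochondrial calcium uniporter, had 19.01, 18.9 and 18.4 FPKM in the ANXA4 shRNA libraries, against 6.25, 5.99 and 6.32 FPKM in the NT shRNA libraries (1.46 log2, SE 0.0447, limma adjusted p = 7.17e-15). The other groups had 17.6 to 20.9 FPKM for MCU, a range that holds the ANXA4 shRNA level and leaves the NT shRNA libraries as the low group.

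Several further large rises were in signalling and transport genes. DUSP5, a nuclear phosphatase that inactivates ERK, had 16.4, 16.5 and 16.1 FPKM in the ANXA4 shRNA libraries, against 5.33, 6.07 and 6.06 FPKM in the NT shRNA libraries (1.35 log2, SE 0.0914, limma adjusted p = 4.26e-10). Its other 5 group means lay between 4.83 and 6.45 FPKM, so only the ANXA4 shRNA mean lay outside them. PRTG, a cell surface protein of the immunoglobulin superfamily, had 5.84, 5.61 and 5.32 FPKM in the ANXA4 shRNA libraries, against 1.48, 1.23 and 1.56 FPKM in the NT shRNA libraries (1.44 log2, limma adjusted p = 1.93e-12). DYNC1LI2, a light intermediate chain of cytoplasmic dynein, had 30.5 against 11.5 FPKM in the ANXA4 shRNA and NT shRNA groups (1.34 log2, limma adjusted p = 1.37e-13). SLC5A6, the sodium-dependent carrier of biotin and pantothenate, had 30.8, 29.9 and 28.9 FPKM in the ANXA4 shRNA libraries, against 11.5, 11.2 and 12.1 FPKM in the NT shRNA libraries (1.30 log2, limma adjusted p = 6.26e-13). GNPDA1, which turns glucosamine 6-phosphate back towards glycolysis, had 69.9 against 28.1 FPKM (1.29 log2, limma adjusted p = 7.55e-14). ZMPSTE24, the protease that matures lamin A, had 38.3 against 14.9 FPKM, and GPS2, a subunit of the NCoR corepressor complex, had 46.8 against 19.3 FPKM (1.31 and 1.24 log2). The ubiquitin ligases MKRN2 (25.3 against 9.99 FPKM) and RNF6 (10.8 against 3.94 FPKM) rose by 1.26 and 1.25 log2. The rule that named these genes took only genes whose libraries do not overlap, so their separation carries no further information. Over all genes tested, 60.9% did not overlap.

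RPLP1, an acidic protein of the ribosomal stalk, had the largest fall both on the log2 scale and in FPKM. It had 446, 438 and 448 FPKM in the ANXA4 shRNA libraries, against 1568, 1597 and 1484 FPKM in the NT shRNA libraries (-1.80 log2, SE 0.0465, limma adjusted p = 1.06e-15). POLR3GL, a subunit of RNA polymerase III, had 7.72, 9.81 and 9.34 FPKM in the ANXA4 shRNA libraries, against 31.5, 28.2 and 30.5 FPKM in the NT shRNA libraries (-1.65 log2, SE 0.0777, limma adjusted p = 2.38e-12). ACBD3, a Golgi protein that recruits the lipid kinase PI4KB, had 10.5, 11.3 and 10.9 FPKM in the ANXA4 shRNA libraries, against 33.4, 33.1 and 34.2 FPKM in the NT shRNA libraries (-1.54 log2, SE 0.0428, limma adjusted p = 1.88e-15). In each of these 3 genes the ANXA4 shRNA mean lay below and the NT shRNA mean above all 5 other group means. For RPLP1 and POLR3GL the NT shRNA side was narrow. NT shRNA replicate 3 for RPLP1 (1484 FPKM) lay below the highest other group mean (1537 FPKM), as did replicate 2 for POLR3GL (28.2 against 29.7 FPKM).

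For some falls only the ANXA4 shRNA mean lay outside the background. SET, a histone chaperone and inhibitor of the phosphatase PP2A, had 68.7, 69.1 and 68.8 FPKM in the ANXA4 shRNA libraries, against 189.6, 187 and 187 FPKM in the NT shRNA libraries (-1.43 log2, SE 0.0321, limma adjusted p = 2.37e-16), and the other 5 groups had 154 to 199 FPKM. AGO1, an Argonaute protein that carries small RNAs, had 3.55, 3.68 and 4.11 FPKM in the ANXA4 shRNA libraries, against 11.8, 10.9 and 11.6 FPKM in the NT shRNA libraries (-1.38 log2, SE 0.0506, limma adjusted p = 8.33e-14), with 7.33 to 12.2 FPKM elsewhere. For both genes the NT shRNA libraries lay within the background range. B4GAT1, a glucuronyltransferase that builds the matrix-binding glycan of dystroglycan, showed the same layout, with 19.7 against 50.9 FPKM (-1.33 log2, limma adjusted p = 4.22e-14) and 43.5 to 52.4 FPKM in the other groups. SETSIP, a near-identical copy of SET, also fell (2.65 against 8.03 FPKM), but reads of SET and SETSIP can be split between them.

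GLTP, which carries glycolipids between membranes, had 5.86, 5.16 and 5.85 FPKM in the ANXA4 shRNA libraries, against 15.2, 17.6 and 15.8 FPKM in the NT shRNA libraries (-1.38 log2, limma adjusted p = 5.80e-13). PITPNB, which carries phosphatidylinositol between membranes, had 21.3, 20.8 and 21.4 FPKM in the ANXA4 shRNA libraries, against 58.97, 57.8 and 57.2 FPKM in the NT shRNA libraries (-1.41 log2, limma adjusted p = 1.06e-15). Both lipid carriers were tightly grouped in the background, GLTP at 15.3 to 16.2 FPKM and PITPNB at 51.6 to 54.5 FPKM. SDC4, a heparan sulfate proteoglycan of focal adhesions, had 4.57, 4.15 and 4.85 FPKM in the ANXA4 shRNA libraries, against 12.1, 13.2 and 12.1 FPKM in the NT shRNA libraries (-1.29 log2, limma adjusted p = 8.33e-12). BCL2L12, a BCL2 family member, had 14.8 against 40.9 FPKM, and HIBADH, an enzyme of valine breakdown, had 8.25 against 23.5 FPKM (-1.41 and -1.40 log2). TSPYL2, of the NAP1 family, had 11.2 against 30.6 FPKM (-1.38 log2, limma adjusted p = 6.81e-13). HES5, a Notch target, was low in both groups, with 0.970 against 3.80 FPKM (-1.28 log2, limma adjusted p = 6.89e-07), and neither mean lay outside the wide background range of 0.938 to 5.65 FPKM. ASB3 and GPR75-ASB3 overlap on one strand and share reads, so their falls (-1.30 and -1.30 log2) count as 1. SNHG12, a long noncoding host of small nucleolar RNAs, had 5.55 against 15.3 FPKM (-1.31 log2).

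**Figure D3:**
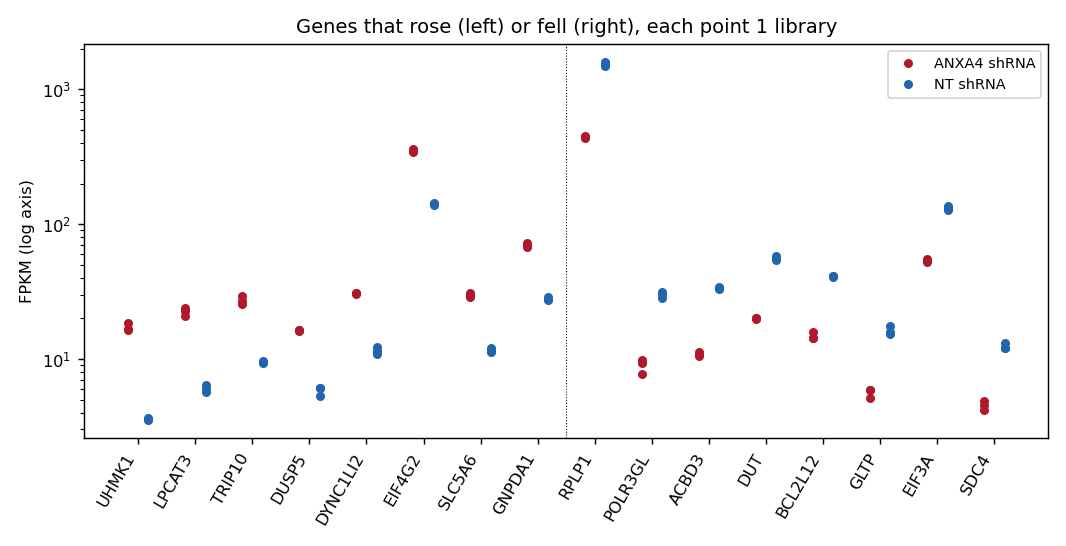
FPKM (log axis) in each ANXA4 shRNA library and each NT shRNA library for genes that rose (left of the dotted line) or fell (right), 1 point per library. UHMK1 lies at 16.5 to 18.6 FPKM with the ANXA4 shRNA and at 3.50 to 3.65 FPKM with the NT shRNA, and RPLP1 at 438 to 448 FPKM with the ANXA4 shRNA and at 1484 to 1597 FPKM with the NT shRNA.

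Ribosomal protein genes were mostly lower with the ANXA4 shRNA, while factors that assemble ribosomes were mostly higher. The large subunit is joined by a stalk of RPLP0 with dimers of RPLP1 and RPLP2, which recruits elongation factors. RPLP2 had 380.3, 371 and 379 FPKM in the ANXA4 shRNA libraries, against 937, 954 and 887 FPKM in the NT shRNA libraries (-1.29 log2, limma adjusted p = 1.38e-12). RPLP0, the base of the stalk, had 412, 430.3 and 429.9 FPKM in the ANXA4 shRNA libraries, against 570.2, 587 and 552 FPKM in the NT shRNA libraries (-0.43 log2, limma adjusted p = 1.69e-07). The stalk genes thus fell by unequal amounts, RPLP1 by 1.80, RPLP2 by 1.29 and RPLP0 by 0.43 log2. The member that rose, RPL6 at 0.08 log2, lost its call without NT shRNA replicate 1 or 3 and without ANXA4 shRNA replicate 2 or 3. RPL14 had 178 against 394 FPKM and RPL13A 234 against 404 FPKM (-1.14 and -0.78 log2). Of 48 large subunit genes, 31 fell and 1 rose, with a median of -0.17 log2 beside -0.01 log2 over all genes tested. Of 32 small subunit genes, 18 fell and 0 rose, with a median of -0.17 log2. RPS12 led these with 366, 339 and 348 FPKM in the ANXA4 shRNA libraries, against 568, 589.8 and 527 FPKM in the NT shRNA libraries (-0.68 log2, limma adjusted p = 1.71e-09). Summed over the small subunit genes, the level was 19961 to 20409 FPKM with the ANXA4 shRNA and 22048 to 23571 FPKM with the NT shRNA. Reads of ribosomal protein genes can be shared with their many processed pseudogenes.

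Of 39 ribosome biogenesis genes, 24 rose and 1 fell, with a median of 0.19 log2. NSA2, which acts in the maturation of the large subunit, had 63.2, 60.99 and 60.2 FPKM in the ANXA4 shRNA libraries, against 19.9, 20.2 and 20.6 FPKM in the NT shRNA libraries (1.56 log2, SE 0.0460, limma adjusted p = 4.67e-15). LYAR had 55.7 against 36.8 FPKM, PES1, which acts in large subunit ribosomal RNA processing, 98.6 against 68.4 FPKM, and NOB1, the nuclease that finishes the small subunit ribosomal RNA, 56.6 against 39.3 FPKM (0.58, 0.52 and 0.51 log2). NCL, nucleolin, was the member that fell, with 411 against 488 FPKM (-0.25 log2, limma adjusted p = 0.000155). FBL, NOP56 and the transcription factor UBTF were not called, at -0.03, 0.01 and 0.01 log2.

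Of 47 translation factors, 25 rose and 14 fell, and the extremes lay in initiation. EIF2B2, a regulatory subunit of the exchange factor that recharges eIF2 with GTP, had 60.8, 61.5 and 57.5 FPKM in the ANXA4 shRNA libraries, against 22.9, 24.1 and 21.7 FPKM in the NT shRNA libraries (1.35 log2, SE 0.0600, limma adjusted p = 1.05e-12). EIF2B1, another regulatory subunit, had 46.6, 46.6 and 45.7 FPKM in the ANXA4 shRNA libraries, against 23.9, 23.5 and 21.9 FPKM in the NT shRNA libraries (0.97 log2, limma adjusted p = 5.29e-12). The background groups had 42.1 to 62.2 FPKM for EIF2B2 and 38.2 to 49.97 FPKM for EIF2B1, which hold the ANXA4 shRNA levels and lie above the NT shRNA levels. EIF2B3 and EIF2B4 rose by less (0.48 and 0.31 log2), and the catalytic subunit EIF2B5 was not called (0.05 log2). EIF4G2, an eIF4G relative that does not bind the cap-binding protein, had 362, 353 and 345 FPKM in the ANXA4 shRNA libraries, against 142, 138 and 142 FPKM in the NT shRNA libraries (1.32 log2, SE 0.0305, limma adjusted p = 2.37e-16). EIF3A, the largest eIF3 subunit, had 53.03, 55.1 and 52.5 FPKM in the ANXA4 shRNA libraries, against 136, 131 and 127 FPKM in the NT shRNA libraries (-1.28 log2, SE 0.0457, limma adjusted p = 7.02e-14). Other eIF3 subunits went the other way, among them EIF3B (0.49 log2), EIF3C (0.40) and EIF3J (0.59). The helicase EIF4A1 and its partners EIF4H and EIF4B fell by 0.73, 0.78 and 0.51 log2, with EIF4A1 at 195 FPKM with the ANXA4 shRNA and 325 FPKM with the NT shRNA. The elongation factors EEF1A1 and EEF2 fell by 0.27 and 0.25 log2.

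Genes of DNA replication were mostly lower. Of 51 tested, 5 rose and 34 fell, with a median of -0.21 log2. The NT shRNA mean alone lay outside the other 5 groups for 18 of the 51, and the ANXA4 shRNA mean alone for 12. Both lay outside on opposite sides for 4 and on the same side for 4, and neither lay outside for 13. CCNE1, cyclin E1, which drives entry into S phase with CDK2, had 6.67, 6.50 and 6.72 FPKM in the ANXA4 shRNA libraries, against 16.3, 14.6 and 16.1 FPKM in the NT shRNA libraries (-1.13 log2, SE 0.0769, limma adjusted p = 4.52e-10). DBF4, the activator of the origin-firing kinase CDC7, had 4.10 against 8.47 FPKM (-0.89 log2, limma adjusted p = 3.21e-11). The clamp loader subunit RFC5 had 27.2 against 48.5 FPKM and the single-strand binding subunit RPA2 had 46.1 against 78.8 FPKM (-0.81 and -0.76 log2). All 6 subunits of the replicative helicase, MCM2 to MCM7, fell, by 0.33, 0.37, 0.12, 0.67, 0.60 and 0.12 log2 in the order MCM2, MCM3, MCM4, MCM5, MCM6 and MCM7. MCM6 had 53.99, 54.9 and 52.05 FPKM in the ANXA4 shRNA libraries, against 83.6, 82.1 and 79.1 FPKM in the NT shRNA libraries (-0.60 log2, limma adjusted p = 9.59e-12). Its ANXA4 shRNA mean lay below and its NT shRNA mean above the other 5 groups (59.3 to 69.8 FPKM). The 5 members that rose were ORC3 (0.59 log2), PRIM2 (0.33), POLE2 (0.15), ORC2 (0.14) and RPA1 (0.14), of which 3 were called without NT shRNA replicate 2 or without ANXA4 shRNA replicate 1.

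E2F transcription factors switch on many replication genes, so promoters of the list were searched for their letters. MCM6 and E2F2 are shown because both fell and both carry a match. The sequences are the 250 bases before the first listed start in RefSeq, build GRCh38.p14, 5′ to 3′ on the strand of the gene, with matches in capitals:
MCM6 (chr2:135876444-135876693, minus strand): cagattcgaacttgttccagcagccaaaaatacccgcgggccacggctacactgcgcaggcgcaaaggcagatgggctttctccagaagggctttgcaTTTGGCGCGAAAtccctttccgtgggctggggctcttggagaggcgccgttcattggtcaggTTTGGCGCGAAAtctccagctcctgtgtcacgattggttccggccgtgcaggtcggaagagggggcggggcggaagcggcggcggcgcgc
E2F2 (chr1:23531234-23531483, minus strand): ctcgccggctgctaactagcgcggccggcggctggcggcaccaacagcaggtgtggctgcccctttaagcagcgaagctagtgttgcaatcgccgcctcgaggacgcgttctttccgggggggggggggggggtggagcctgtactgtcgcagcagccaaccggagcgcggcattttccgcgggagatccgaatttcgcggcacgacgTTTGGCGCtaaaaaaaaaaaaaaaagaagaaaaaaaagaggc
The letters searched were TTTCCCGC, TTTCGCGC, TTTGCCGC and TTTGGCGC on both strands. In MCM6 the capitals hold 4 matches at 2 places, each a pair that overlaps on opposite strands. A match stood in 15 of 43 replication promoters found in RefSeq by symbol (34.9%) and in 11 of the 29 among them whose genes fell (37.9%). The share was 2.80% of all 27195 promoters and 4.65% of those matched to tested genes. A match describes letters, and factor binding was not measured. E2F2 itself, an activating member of the family, had 13.7, 14.2 and 14.3 FPKM in the ANXA4 shRNA libraries, against 22.2, 20.98 and 21.7 FPKM in the NT shRNA libraries (-0.59 log2, limma adjusted p = 1.19e-07). E2F1 fell by 0.51 log2, with 42.8 FPKM with the ANXA4 shRNA and 61.5 FPKM with the NT shRNA, and E2F3 was not called (-0.00 log2).

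Genes that supply nucleotides moved in both directions: of 36, 12 rose and 16 fell, beside 25.6% higher and 26.3% lower over all genes tested. DUT, which removes dUTP so that uracil is kept out of DNA, had 19.8, 20.2 and 19.97 FPKM in the ANXA4 shRNA libraries, against 54.6, 55.1 and 58.1 FPKM in the NT shRNA libraries (-1.44 log2, SE 0.0382, limma adjusted p = 1.29e-15). IMPDH2, the committed enzyme of guanine nucleotide synthesis, had 167 against 246 FPKM and PRPS1, which makes the ribose donor PRPP, 71.8 against 112 FPKM (-0.56 and -0.64 log2). NME1, a nucleoside diphosphate kinase, had 539, 562 and 529 FPKM in the ANXA4 shRNA libraries, against 311, 334 and 313 FPKM in the NT shRNA libraries (0.77 log2, limma adjusted p = 8.80e-08), although reads of NME1 and its close relative NME2 may be shared. Mitotic genes leaned lower, as 19 of 32 fell and 7 rose, with a median of -0.16 log2. PTTG1, securin, had 62.9 against 109 FPKM, the kinesin KIF2C 42.6 against 63.3 FPKM and TOP2A, topoisomerase II, 131 against 169 FPKM (-0.78, -0.56 and -0.37 log2). PRC1, which bundles microtubules at the spindle midzone, rose (131 against 99.7 FPKM, 0.39 log2), as did CCNB1 and CDC20 (0.21 and 0.28 log2).

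The kinases that partner D cyclins went in opposite directions. CDK6 had 15.1, 13.97 and 13.6 FPKM in the ANXA4 shRNA libraries, against 5.25, 5.69 and 5.54 FPKM in the NT shRNA libraries (1.23 log2, SE 0.0579, limma adjusted p = 2.38e-12). CDK4 had 61.8, 67.9 and 63.6 FPKM in the ANXA4 shRNA libraries, against 132, 143 and 132 FPKM in the NT shRNA libraries (-1.06 log2, SE 0.0574, limma adjusted p = 1.69e-11). Over the other groups CDK6 ranged over 3.75 to 10.96 FPKM and CDK4 over 62.2 to 179 FPKM. The low end of both ranges was the B4GALNT1 shRNA group. The RfxCasR groups had 9.79 to 10.96 FPKM for CDK6 and 144 to 179 FPKM for CDK4. The low CDK4 level with the ANXA4 shRNA (mean 64.4 FPKM) was therefore shared with the B4GALNT1 shRNA, while the CDK6 mean (14.2 FPKM) lay above all other groups. CCND1, cyclin D1, had 12.96, 13.3 and 12.9 FPKM in the ANXA4 shRNA libraries, against 6.39, 6.84 and 7.78 FPKM in the NT shRNA libraries (0.81 log2, limma adjusted p = 1.46e-07). The CDK4 and CDK6 inhibitors split as well: CDKN2B rose (5.07 against 3.06 FPKM, 0.58 log2), and CDKN2C (34.4 against 41.9 FPKM) and CDKN2D (14.2 against 22.02 FPKM) fell (-0.28 and -0.60 log2). CDKN1A and CDKN1B, which inhibit CDK2, were not called (0.03 and 0.01 log2). Of the 15 genes of this list, 5 rose and 4 fell, beside 25.6% higher and 26.3% lower over all genes tested.

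Genes of the integrated stress response, in which phosphorylated eIF2 raises translation of ATF4 and ATF4 switches on amino acid supply, were mostly lower. Of 29 tested, 3 rose and 17 fell, with a median of -0.33 log2. A model without the array libraries called 6 as higher. ATF4 had 124, 133 and 123 FPKM in the ANXA4 shRNA libraries, against 231, 221 and 230.1 FPKM in the NT shRNA libraries (-0.84 log2, SE 0.0523, limma adjusted p = 1.33e-10). SLC7A11, the cystine and glutamate exchanger, had 1.51, 1.19 and 1.57 FPKM in the ANXA4 shRNA libraries, against 5.16, 4.72 and 4.61 FPKM in the NT shRNA libraries (-1.27 log2, limma adjusted p = 2.74e-06). CHAC1, which degrades glutathione, had 2.34, 2.36 and 2.23 FPKM in the ANXA4 shRNA libraries, against 5.97, 6.75 and 5.77 FPKM in the NT shRNA libraries (-1.11 log2, limma adjusted p = 1.97e-06). ASNS, asparagine synthetase, had 33.5, 37.1 and 36.9 FPKM in the ANXA4 shRNA libraries, against 65.5, 60.6 and 59.1 FPKM in the NT shRNA libraries (-0.77 log2, limma adjusted p = 0.000242). In each of these 4 genes the highest ANXA4 shRNA library lay below the lowest NT shRNA library, and the ANXA4 shRNA mean lay below all 5 other group means. The libraries of the groups did not overlap for 60.9% of all genes tested.

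Other amino acid carriers and synthesis enzymes of the list fell too: SLC7A5 (-0.60 log2), SLC7A1 (-0.62), SLC1A4 (-0.62), PSPH (-0.43), PSAT1 (-0.40) and PHGDH (-0.35). DDIT4, an inhibitor of mTORC1, had 142 against 258 FPKM (-0.86 log2). EIF2AK4, the eIF2 kinase that senses uncharged transfer RNA, had 11.3 against 15.96 FPKM (-0.47 log2). PPP1R15B, which directs the phosphatase that removes phosphate from eIF2, rose, with 12.1, 11.5 and 12.2 FPKM in the ANXA4 shRNA libraries, against 6.96, 5.95 and 6.71 FPKM in the NT shRNA libraries (0.78 log2, limma adjusted p = 2.65e-09). ATF5 and ATF3 were the other members that rose (0.33 and 0.27 log2), and DDIT3 was not called (-0.00 log2). Among 23 aminoacyl-tRNA synthetase genes, 8 rose and 11 fell. CARS (-0.64 log2), AARS (-0.56), GARS (-0.49) and QARS (-0.42) were lowest, while SARS (0.47) and KARS (0.40) were highest.

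CHAC1 and ASNS are shown because both fell and hold the letters of a site that ATF4 is known to use with CEBP partners, TGATGNAA, searched on both strands in the same window:
CHAC1 (chr15:40953221-40953470, plus strand): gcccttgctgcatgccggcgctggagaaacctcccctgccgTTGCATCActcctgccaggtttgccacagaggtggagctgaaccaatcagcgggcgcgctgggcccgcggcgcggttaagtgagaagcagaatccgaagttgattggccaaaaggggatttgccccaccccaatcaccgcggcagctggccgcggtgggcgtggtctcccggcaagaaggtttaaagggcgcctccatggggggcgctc
ASNS (chr7:97872409-97872658, minus strand): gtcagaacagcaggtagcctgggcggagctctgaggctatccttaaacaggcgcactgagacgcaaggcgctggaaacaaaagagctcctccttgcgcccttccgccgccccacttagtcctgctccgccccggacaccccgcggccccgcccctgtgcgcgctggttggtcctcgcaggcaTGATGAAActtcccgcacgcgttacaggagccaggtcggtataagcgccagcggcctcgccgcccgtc
The capitals mark the match, which is on the opposite strand in CHAC1. It was found in 4 of 26 matched promoters of the list (15.4%) and in 2 of the 14 among them whose genes fell (14.3%), against 3.18% of all 27195 promoters and 1.31% of those matched to tested genes. These counts are small, and most members that fell carry no match in this window.

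Subunits of RNA polymerase III that replace each other moved in opposite directions. POLR3G and POLR3GL are alternative forms of one subunit, POLR3G being the one known from stem cells and tumour lines and POLR3GL the more general one. POLR3G had 10.7, 9.65 and 9.27 FPKM in the ANXA4 shRNA libraries, against 3.53, 3.90 and 3.67 FPKM in the NT shRNA libraries (1.21 log2, SE 0.0893, limma adjusted p = 1.44e-09). The other 5 group means were 6.45 to 8.86 FPKM, below the ANXA4 shRNA mean and above the NT shRNA mean. For POLR3GL they were 25.6 to 29.7 FPKM, above the ANXA4 shRNA mean and below the NT shRNA mean, although 1 NT shRNA library lay within that range. POLR3C, a neighbour of that subunit in the enzyme, rose (22.4 against 13.3 FPKM, 0.71 log2, limma adjusted p = 6.75e-09). Over 22 genes of the polymerase and its initiation factors, 9 rose and 4 fell, with BRF1, of the initiation factor TFIIIB, at 18.4 against 22.3 FPKM (-0.27 log2).

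Of 24 genes of histone chaperones and other chromatin proteins, 4 rose and 15 fell, with a median of -0.22 log2. ANP32E, which removes the variant histone H2A.Z from chromatin, had 44.3, 41.9 and 41.4 FPKM in the ANXA4 shRNA libraries, against 89.8, 90.1 and 89.2 FPKM in the NT shRNA libraries (-1.06 log2, SE 0.0567, limma adjusted p = 1.44e-11). HIRA, which deposits histone H3.3, had 19.3 against 30.03 FPKM and ASF1B, a chaperone of newly made H3 and H4, 65.4 against 92.1 FPKM (-0.62 and -0.49 log2). The high-mobility-group genes of the list moved in both directions: HMGA2 and HMGA1 rose (0.41 and 0.22 log2), HMGB1, HMGB2 and HMGN2 fell (-0.40, -0.35 and -0.11 log2) and HMGN1 was not called (0.01 log2). SSRP1 and TSPYL1 rose (0.17 and 0.27 log2). Among 41 splicing genes, a list that includes UHMK1, 17 rose and 8 fell. PTBP1, a splicing repressor that also lowers its relative PTBP2, had 186, 187 and 186 FPKM in the ANXA4 shRNA libraries, against 125, 121 and 123 FPKM in the NT shRNA libraries (0.59 log2, limma adjusted p = 5.21e-13). PTBP2, the form known from neurons, had 14.3, 13.9 and 13.96 FPKM in the ANXA4 shRNA libraries, against 25.3, 26.8 and 23.6 FPKM in the NT shRNA libraries (-0.80 log2, limma adjusted p = 1.87e-09). For PTBP1 the NT shRNA mean lay below the other 5 groups (172 to 212 FPKM), and for PTBP2 both means lay above them (9.42 to 13.2 FPKM). SRSF9 (0.46 log2) and U2AF1 (0.31 log2) rose.

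**Figure D4:**
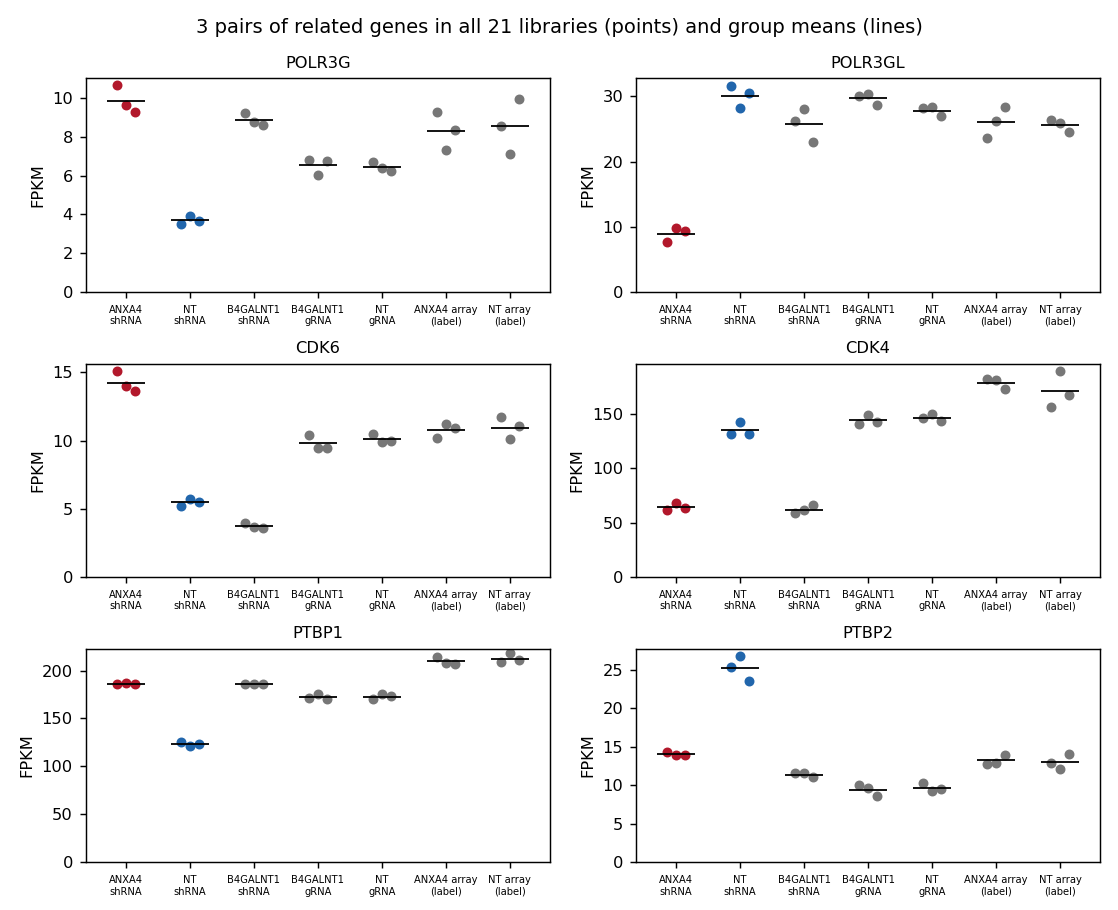
FPKM (vertical axes, from 0) in each of the 21 libraries (points) and group means (lines) for 3 pairs of related genes chosen after their values were seen: POLR3G and POLR3GL, CDK6 and CDK4, PTBP1 and PTBP2. The first gene of each pair is higher and the second lower in all 3 ANXA4 shRNA libraries than in all 3 NT shRNA libraries.

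Among lipid genes, those of cholesterol synthesis were mostly higher. Of 26 genes of cholesterol synthesis and its control, 16 rose and 4 fell, with a median of 0.25 log2. SREBF2, the transcription factor that drives the pathway, had 57.4, 59.9 and 61.5 FPKM in the ANXA4 shRNA libraries, against 34.2, 34.5 and 35.96 FPKM in the NT shRNA libraries (0.76 log2, SE 0.0445, limma adjusted p = 5.81e-11). MSMO1 and DHCR7, which act late in the pathway, had 68.3 against 40.95 FPKM and 78.3 against 51.4 FPKM (0.72 and 0.60 log2). The members that fell were SREBF1 (-0.26 log2), HMGCS1 (-0.24), PMVK (-0.21) and TM7SF2 (-0.19). The SREBP letters TCACNCCAC stood in 1 of 20 matched promoters, against 0.84% of those matched to tested genes.

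Of 28 genes of fatty acid and phospholipid synthesis, 13 rose and 6 fell. SCD, which makes monounsaturated fatty acids, had 337, 328 and 339 FPKM in the ANXA4 shRNA libraries, against 211, 208 and 208 FPKM in the NT shRNA libraries (0.68 log2, limma adjusted p = 6.75e-10). FASN, fatty acid synthase, had 149, 154 and 159 FPKM in the ANXA4 shRNA libraries, against 105, 105 and 104 FPKM in the NT shRNA libraries (0.55 log2, limma adjusted p = 9.64e-10). ACLY, which supplies their acetyl-CoA, rose by less (202 against 169 FPKM, 0.26 log2). The largest difference of this list was the fall of PITPNB given above (-1.41 log2). PISD, which makes phosphatidylethanolamine in mitochondria, also fell (10.2 against 14.4 FPKM, -0.46 log2). Of 16 acyltransferases that build or remodel phospholipids, 8 rose and 2 fell, with a median of 0.06 log2. After LPCAT3 the largest rises of this list were AGPAT5 (17.1 against 11.3 FPKM, 0.56 log2) and GPAM, the mitochondrial glycerol-3-phosphate acyltransferase (8.31 against 5.85 FPKM, 0.44 log2). MBOAT1 and AGPAT3 were the members that fell (-0.42 and -0.14 log2), and 1 of the 2 lost its call without NT shRNA replicate 2 or without ANXA4 shRNA replicate 2 or 3.

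Of 23 glycolysis genes, 15 rose and 5 fell, with a median of 0.27 log2. The hexokinases HK1 (40.2 against 70.7 FPKM) and HK2 (13.7 against 24.99 FPKM) and the phosphofructokinase PFKL (41.3 against 89.1 FPKM) fell by 0.80, 0.83 and 1.09 log2. ALDOA, aldolase A, had 1683, 1759 and 1793 FPKM in the ANXA4 shRNA libraries, against 820.0, 849 and 828 FPKM in the NT shRNA libraries (1.07 log2, SE 0.0417, limma adjusted p = 2.07e-13), the largest rise in FPKM of any called gene. ENO1 had 2506 against 1882 FPKM and LDHA 937 against 668 FPKM (0.41 and 0.49 log2). SLC16A1, a lactate and pyruvate carrier, had 97.996, 96.2 and 94.7 FPKM in the ANXA4 shRNA libraries, against 52.7, 52.8 and 52.9 FPKM in the NT shRNA libraries (0.85 log2, limma adjusted p = 4.49e-13). GAPDH, which stands between them in the pathway and is often used as a reference transcript, fell, with 1459, 1528 and 1548 FPKM in the ANXA4 shRNA libraries, against 2034, 2069 and 2040.3 FPKM in the NT shRNA libraries (-0.44 log2, limma adjusted p = 1.43e-09). PGK1 was not called (-0.01 log2). PFKM was not called (-0.00 log2), while PFKP rose (0.11 log2), so the phosphofructokinase genes did not move as one.

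Of 75 oxidative phosphorylation subunit genes, 33 rose and 14 fell, with a median of 0.09 log2. ATP5PO (ATP5O in the table), the oligomycin sensitivity subunit of ATP synthase, had 238 against 120.0 FPKM and SDHD, a membrane anchor of complex II, 39.9 against 23.6 FPKM (0.98 and 0.73 log2). The largest falls were in complex III, in UQCRQ (52.96 against 93.2 FPKM) and UQCR11 (69.9 against 111 FPKM), at -0.80 and -0.66 log2. Other complex III genes, UQCRC1 and UQCRFS1, were not called (-0.04 and -0.02 log2).

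Of 31 calcium handling genes, 11 rose and 15 fell. The share called was 83.9%, against 51.8% over all genes tested, and lists with no tie to calcium had like shares, such as translation factors (83.0%) and aminoacyl-tRNA synthetases (82.6%). Beside MCU, the uniporter genes MCUR1 and MCUB rose (0.29 and 0.15 log2), and MICU2 and SMDT1 were not called (-0.08 and -0.03 log2). VDAC1, the main pore of the outer mitochondrial membrane, had 181 against 123 FPKM (0.56 log2). CALM2, which encodes the calcium sensor calmodulin, had 141, 139 and 141 FPKM in the ANXA4 shRNA libraries, against 237, 227 and 231 FPKM in the NT shRNA libraries (-0.72 log2, limma adjusted p = 4.58e-13), and CALM3 fell by 0.34 log2. TMBIM6, a calcium leak channel of the endoplasmic reticulum, had 104 against 149.6 FPKM (-0.52 log2). Receptors for inositol trisphosphate differed, ITPR1 at 0.41, ITPR2 at -0.26 and ITPR3 at -0.43 log2. The store-operated genes STIM1 (-0.11 log2) and ORAI1 (0.22 log2) moved apart by small amounts.

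Plasma membrane repair uses calpains, annexins and the ESCRT machinery that sheds damaged membrane. Of 33 such genes, 10 rose and 10 fell, beside 25.6% higher and 26.3% lower over all genes tested. VPS4A, the ATPase that takes ESCRT-III apart, had 45.9, 43.8 and 47.3 FPKM in the ANXA4 shRNA libraries, against 75.3, 76.5 and 74.98 FPKM in the NT shRNA libraries (-0.71 log2, limma adjusted p = 1.29e-11), and its relative VPS4B was not called (-0.00 log2). CHMP2B, of ESCRT-III, had 13.5 against 22.1 FPKM and VPS36, of ESCRT-II, 8.13 against 13.7 FPKM (both -0.68 log2). HGS, of ESCRT-0, rose (35.7 against 23.3 FPKM, 0.60 log2). The calpain subunits moved in both directions, CAPN2 up (39.3 against 30.2 FPKM, 0.37 log2) and the shared small subunit CAPNS1 down (93.1 against 126 FPKM, -0.43 log2). Of 26 Golgi genes, 7 rose and 11 fell, and 4 rose without NT shRNA replicate 2 or without ANXA4 shRNA replicate 3. Beside ACBD3 all of these differences were under 0.5 log2, and PI4KB, which ACBD3 recruits, was not called (-0.04 log2).

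Among 37 integrin and matrix genes, 13 rose and 14 fell, beside 25.6% higher and 26.3% lower over all genes tested. ITGB1, the beta chain shared by many integrins, had 30.7, 32.7 and 30.03 FPKM in the ANXA4 shRNA libraries, against 65.99, 67.6 and 61.5 FPKM in the NT shRNA libraries (-1.04 log2, SE 0.0607, limma adjusted p = 5.36e-11). LAMB2, a laminin chain of basement membranes, had 5.498 against 12.2 FPKM (-1.03 log2, limma adjusted p = 5.42e-10). Its other 5 group means were 4.385 to 7.95 FPKM, a range that holds the ANXA4 shRNA mean and lies below the NT shRNA mean. AGRN, HSPG2, COL18A1 and LAMA5, also of basement membranes, fell by 0.68, 0.64, 0.67 and 0.67 log2. COL4A2 rose, with 23.7, 24.2 and 24.8 FPKM in the ANXA4 shRNA libraries, against 12.1, 12.5 and 11.6 FPKM in the NT shRNA libraries (0.95 log2, limma adjusted p = 3.28e-12), while COL4A1, its partner in collagen IV, rose by 0.15 log2. TLN1, talin, which links integrins to actin, had 26.5 against 15.6 FPKM (0.73 log2), and the alpha chains ITGAV and ITGA5 rose (0.50 and 0.36 log2).

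The hairpins act through the small RNA machinery, of which 26 genes were tested: 10 rose and 10 fell. All genes tested gave 25.6% higher and 26.3% lower. Besides AGO1, the Argonautes AGO2 and AGO3 fell by 0.21 and 0.28 log2, and AGO4 was not called (0.06 log2). DICER1 had 15.5, 14.6 and 14.2 FPKM in the ANXA4 shRNA libraries, against 10.1, 9.17 and 10.4 FPKM in the NT shRNA libraries (0.54 log2, limma adjusted p = 1.16e-07). XPO5, which exports hairpins from the nucleus, had 50.5 against 39.95 FPKM (0.33 log2). TNRC6A, a scaffold of silencing complexes, had 12.6 against 8.84 FPKM (0.47 log2). DROSHA and DGCR8, which cut primary microRNAs and are not needed for most shRNAs, fell by 0.26 and 0.32 log2. Of 24 genes of the interferon response and RNA sensing, 2 rose and 6 fell, and 11 further listed genes were too low to test, IFNB1 and MX1 among them. BST2, tetherin, had 1.17, 2.17 and 1.31 FPKM in the ANXA4 shRNA libraries, against 4.89, 5.65 and 4.66 FPKM in the NT shRNA libraries (-1.27 log2, limma adjusted p = 2.84e-07). Its other 5 group means were 1.15 to 4.06 FPKM, a range that holds the ANXA4 shRNA mean and lies below the NT shRNA mean. ADAR, which edits double-stranded RNA, had 44.6 against 63.5 FPKM, and MAVS, the mitochondrial adaptor of RNA sensing, had 6.32 against 4.37 FPKM (-0.50 and 0.45 log2). ISG15, IFIT1 and DDX58 were not called (0.14, -0.22 and 0.06 log2).

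Stress and death genes gave mixed counts, beside 25.6% higher and 26.3% lower over all genes tested. Of 19 p53 target genes, 1 rose and 6 fell (2 rose without NT shRNA replicate 2 or 3), in a line where large T antigen binds p53. CDKN1A and MDM2 were not called (0.03 and -0.01 log2), and BBC3, a death-promoting member, had 6.88 against 11.3 FPKM (-0.65 log2). Of 26 BCL2 family and caspase genes, 9 rose and 8 fell. BAD, which promotes death, had 40.5, 40.6 and 41.8 FPKM in the ANXA4 shRNA libraries, against 20.4, 22.5 and 23.2 FPKM in the NT shRNA libraries (0.87 log2, limma adjusted p = 2.28e-07). BCL2L2, which protects cells, had 3.91 against 8.42 FPKM (-0.94 log2, limma adjusted p = 1.29e-10), while MCL1 rose by 0.13 log2 and BCL2 was not called (-0.00 log2). Of 15 NF-kB genes, 6 rose and 4 fell, with RELB, low in both groups, at 3.55 against 1.20 FPKM (1.05 log2). Of 21 immediate early genes, 10 rose and 4 fell. EGR1 had 7.30, 6.80 and 6.51 FPKM in the ANXA4 shRNA libraries, against 3.15, 2.35 and 2.69 FPKM in the NT shRNA libraries (1.08 log2, limma adjusted p = 1.32e-06). JUN and FOSL2, of the AP-1 factors, had 154 against 95.1 FPKM and 9.99 against 5.92 FPKM (0.69 and 0.67 log2), while FOS and MYC were not called (0.06 and -0.04 log2).

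Protein folding and breakdown genes were mostly higher. Of 32 proteasome subunits, 19 rose and 6 fell, with a median of 0.16 log2. For 15 of the 32 the NT shRNA mean alone lay outside the other 5 groups, and for 4 the ANXA4 shRNA mean alone. PSMA6, a subunit of the core ring, had 102, 104 and 97.1 FPKM in the ANXA4 shRNA libraries, against 44.9, 46.8 and 46.2 FPKM in the NT shRNA libraries (1.12 log2, SE 0.0407, limma adjusted p = 7.55e-14). Its background was 79.5 to 106 FPKM, which holds the ANXA4 shRNA level. PSMB6, a catalytic subunit, had 169.9 against 111 FPKM and PSMA1 fell, with 78.4 against 99.9 FPKM (0.61 and -0.35 log2). Of 28 heat shock and cytosolic chaperone genes, 17 rose and 5 fell, with a median of 0.16 log2. DNAJB1 had 97.1, 96.6 and 98.4 FPKM in the ANXA4 shRNA libraries, against 51.03, 51.8 and 50.96 FPKM in the NT shRNA libraries (0.91 log2, limma adjusted p = 3.94e-13), and CDC37, which brings kinases to HSP90, had 178 against 103 FPKM (0.79 log2). HSPA8 had 542 against 383 FPKM (0.50 log2), and HSP90AB1 fell (732 against 837 FPKM, -0.19 log2). Of 20 genes of the unfolded protein response, 10 rose and 5 fell, with HSPA5 at 165 against 126 FPKM, P4HB at 192 against 272 FPKM and SEL1L, of the retrotranslocation machinery, at 5.25 against 9.17 FPKM (0.39, -0.50 and -0.70 log2).

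**Figure D5:**
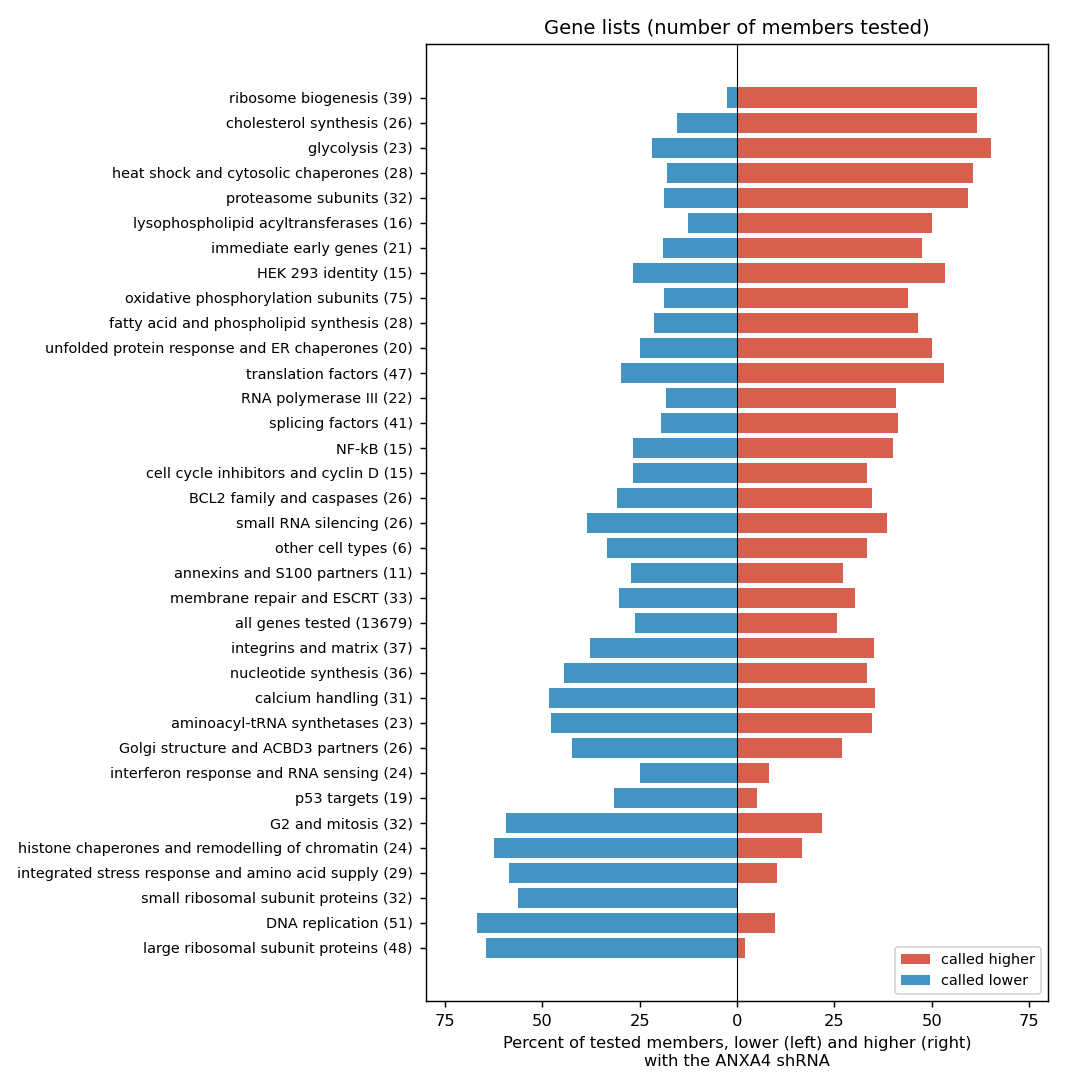
Percent of the tested members of each gene list that were called lower (blue, left of 0) or higher (red, right of 0) with the ANXA4 shRNA, with the number tested beside each name. Small subunit ribosomal proteins have no member called higher, and ribosome biogenesis has 1 of 39 called lower. The bar for all genes tested has 25.6% higher and 26.3% lower.

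Markers of the cell line were checked last. Of 15 tested markers of HEK 293 cells, 8 rose and 4 fell, and PAX2, PAX8 and DDX25 were too low to test. Their summed level was 785 to 813 FPKM with the ANXA4 shRNA and 629.7 to 653 FPKM with the NT shRNA, most of it VIM, vimentin (561 against 394 FPKM, 0.51 log2). TFAP2A, a transcription factor of early ectoderm, had 10.3, 9.02 and 10.3 FPKM in the ANXA4 shRNA libraries, against 19.5, 19.8 and 20.6 FPKM in the NT shRNA libraries (-0.95 log2, limma adjusted p = 2.13e-10). NES, nestin, had 4.01 against 7.98 FPKM (-0.84 log2). Of 15 markers of blood, endothelium and fibroblasts, 6 were high enough to test, 2 rose and 2 fell. LUM, a fibroblast proteoglycan and 1 of the rises, lost its call without NT shRNA replicate 2 or 3 or ANXA4 shRNA replicate 2. The defining markers of blood cells PTPRC and CD3E averaged 0 against 0 FPKM and 0 against 0.0183 FPKM, and those of endothelium PECAM1, VWF and CDH5 averaged 0.007 against 0.00633 FPKM, 0.0333 against 0.026 FPKM and 0.0417 against 0.0283 FPKM. The 6 summed to 13.96 to 14.69 FPKM with the ANXA4 shRNA and 16.02 to 16.81 FPKM with the NT shRNA, most of it the collagens COL1A1 and COL3A1. No part of these markers in the other results was tested.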

How the data were processed

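Stranded messenger RNA libraries of 21 transfected HEK 293FT cultures were compared. Per the submitters' processing notes, which give no order or role, HOMER, STAR, FastQC, R 3.3.2 and DESeq2 1.14.1 were used with build hg19. The authors deposited FPKM values for 27142 annotated genes, counted over exons and condensed to genes by HOMER per the file headers. Their deposited comparison table gives a log2 fold change, an adjusted p-value and a mean normalized count (treated as a signal and not used) per gene. Its 22 rows with date-like names were left out when genes were matched, and were kept in counts over the whole table. Whole reads were recovered from FPKM and exon length, within 0.1 reads for 99.3% to 99.96% of values that could be resolved.

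Genes with FPKM of 1 or more in at least 3 libraries (13679) were fitted on log2(FPKM + 1) with limma 3.58.1 in R 4.3.3, as 7 groups over 21 libraries with an intensity trend and no replicate term, and p-values were adjusted by Benjamini-Hochberg over all of them. The test was first run on simulated data. The spread behind each p is that between these samples, and it may be technical. Within the ANXA4 shRNA group and within the NT shRNA group no library duplicated another. Their replicate libraries differed beyond sampling noise, at 2.49 to 3.21 chi-square per degree of freedom. Other pairs of libraries were not compared in this way.

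The genes and 34 lists described were chosen with earlier results of these data known. The naming rule takes ANXA4, the 20 largest rises and 20 largest falls of genes at least 300 bases long whose libraries do not overlap, all annexins, up to 6 called members per list by p and the 5 largest FPKM differences per direction. Other genes named were chosen after their values were seen, and some genes the rule takes are not reported here. Promoters came from the RefSeq table of GRCh38.p14, matched by symbol. Alternatives were another pseudocount, other filters and scalings, fewer libraries in the model, no variance trend, a replicate block, voom on recovered reads, a stricter threshold, the authors' values and leaving out each library.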

Additional observations from a re-analysis of the deposited data

How the results depend on the processing

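The counts of genes called, called higher and called lower stayed within 1.5 times the values given under every setting run, and ANXA4 stayed lower and called throughout. The count at 2-fold or more was 147, but 336 with a pseudocount of 0.1, 354 with voom on recovered reads and 457 in the authors' deposited table. The 457 was counted over all 15946 rows of the authors' table, and the other 3 counts over the 13679 genes tested. The voom fit and the authors' table differ in more than the pseudocount, and the cause of their higher counts was not tested. Leaving out 1 library at a time gave 6384 to 6532 genes called, 3140 to 3239 higher, 3243 to 3334 lower, 141 to 166 at 2-fold or more, and -1.06 to -0.97 log2 for ANXA4 (limma adjusted p up to 3.61e-08). Same-numbered libraries of the 2 groups had correlations of -0.006, -0.013 and -0.023 in their deviations from the group means. The share of reads in genes was lowest in replicate 3 of both groups, and also in replicate 3 of each of the other 5 groups. It was 85.7%, 85.7% and 84.8% in NT shRNA replicates 1 to 3, and 85.6%, 85.9% and 85.1% in ANXA4 shRNA replicates 1 to 3. Whether replicate numbers mark a shared batch was not tested. With a replicate block in a model of the 6 libraries, 7100.0 genes were called, 146 at 2-fold or more, and ANXA4 differed by -1.02 log2 (limma adjusted p = 0.000154). Differences near 0 that were not called changed sign: ANXA2 was 0.00136 log2 in the authors' deposited table and -0.0384 to 0.0176 without 1 library, ANXA2P1 -0.233 to 0.0530, and ANXA3 -0.0803 to 0.0936. Of 232 genes the naming rule took besides ANXA4, 3 lost a call on leaving out a library (ANXA7, ANXA2P2 and LUM) and 4 under another setting. Genes named outside that rule are not in this count. List counts of 10 or more moved by over 1.5 times in 2 cases, both at an adjusted p under 0.01: 7 calcium handling genes higher and 6 small RNA silencing genes lower.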

Other observations

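Genes of no list also changed by 2-fold or more, and those named here were chosen after their values were seen. SQSTM1, the p62 receptor of selective autophagy, had 49.6, 49.9 and 46.6 FPKM in the ANXA4 shRNA libraries, against 21.5, 19.7 and 19.9 FPKM in the NT shRNA libraries (1.22 log2, limma adjusted p = 5.80e-13). FYCO1, which links autophagosomes to kinesin, had 6.92 against 2.62 FPKM (1.13 log2, limma adjusted p = 1.82e-10). HBEGF, a ligand of the EGF receptor, had 6.29, 6.28 and 6.43 FPKM in the ANXA4 shRNA libraries, against 2.23, 2.08 and 2.34 FPKM in the NT shRNA libraries (1.19 log2, limma adjusted p = 5.79e-08). GJA1, the gap junction protein connexin 43, had 24.5 against 11.7 FPKM, CERS2, a ceramide synthase for very long acyl chains, 71.8 against 31.8 FPKM, and the volume-regulated channel subunit LRRC8D 12.3 against 4.94 FPKM (1.00, 1.15 and 1.17 log2). In the other 5 groups SQSTM1 had 41.7 to 46.8 FPKM and CERS2 52.3 to 75.02 FPKM, both above the NT shRNA libraries.

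Among the falls, RAD21, the cleavable subunit of cohesin, had 57.4, 53.5 and 55.9 FPKM in the ANXA4 shRNA libraries, against 134, 129 and 129 FPKM in the NT shRNA libraries (-1.22 log2, limma adjusted p = 1.62e-15). LBR, a sterol reductase and lamin B receptor of the inner nuclear membrane, had 41.9, 41.3 and 39.1 FPKM in the ANXA4 shRNA libraries, against 86.1, 85.1 and 81.7 FPKM in the NT shRNA libraries (-1.03 log2, limma adjusted p = 5.40e-13). NORAD, a long noncoding RNA that binds Pumilio proteins, had 11.8, 11.8 and 11.9 FPKM in the ANXA4 shRNA libraries, against 28.1, 25.8 and 27.03 FPKM in the NT shRNA libraries (-1.12 log2, limma adjusted p = 1.28e-10), with 23.8 to 30.3 FPKM in the other groups. The methyltransferases DNMT3B (DNA) and NSUN2 (RNA) had 4.09 against 9.27 FPKM and 23.1 against 53.2 FPKM (-1.01 and -1.17 log2), and for both the ANXA4 shRNA and NT shRNA means lay below the other 5 groups. TXNIP, a regulator of thioredoxin and glucose uptake, had 27.5 against 60.9 FPKM (-1.12 log2, limma adjusted p = 3.68e-12), while its other group means ranged over 16.6 to 41.8 FPKM.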
